A study of Mus musculus with 8 samples.

Results

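Sodium absorption through the epithelial sodium channel (ENaC) was followed with 9 genes in RNA from mouse colon epithelial cells, the cell layer lining the large bowel. They were the 9 rows, of 55487 genes listed, with the symbols Scnn1a, Scnn1b, Scnn1g, Nr3c2, Hsd11b2, Sgk1, Fxyd4, Atp1b1 and Nedd4l. There were 4 libraries labelled PIM1+/- and 4 labelled wild type (WT), all from strain C57BL/6J. PIM1+/- denotes heterozygosity for Pim1, a serine/threonine kinase gene. The sources used here do not state the structure of the altered allele, the age and sex of the animals, any treatment, the stretch of colon taken or whether each library is a separate animal. P-values therefore measure the spread between these libraries, which may be technical.

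ENaC lies in the apical membrane and lets sodium enter the cell from the gut lumen. It is a trimer of alpha, beta and gamma subunits, encoded by Scnn1a, Scnn1b and Scnn1g. The sodium pump in the basolateral membrane then moves the sodium towards the blood. Aldosterone, acting through the mineralocorticoid receptor, raises this transport, and the distal colon is one of the classical sites of its action.

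Values were TPM, transcript abundances scaled for gene length and to a fixed sum per library. Read depth cannot be recovered from them and is unknown. All 9 genes reached 1 TPM in at least 4 of the 8 libraries and were tested. Scnn1g passed that filter through the WT libraries, since 1 of 4 PIM1+/- libraries reached 1 TPM. Its call and the separation of its groups are therefore not independent of the filter. Log2 fold changes are PIM1+/- over WT on the log2(TPM + 1) scale, with their SE, and adjusted p-values are from limma over 12760 genes. That scale understates changes of low genes. Of the epithelial markers, Epcam, Cdh1, Krt8 and Vil1 were high in every library. Epcam, an epithelial adhesion gene, averaged 1284 ± 86.8 TPM in PIM1+/- libraries and 1226 ± 47.1 TPM in WT libraries (SD, n = 4 each).

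All 9 genes were lower in PIM1+/- libraries at an adjusted p under 0.05, with the call of Scnn1g not independent of the filter. Among all genes tested 8.54% were called lower and 8.93% higher. The median log2 fold change was -0.46 for the 9 genes and -0.01 for all genes tested. The 4 PIM1+/- libraries lay below all 4 WT libraries for 8 of the 9 genes, Scnn1b being the exception, against 11.6% of all genes tested. The fall was greatest for Fxyd4, at -2.90, and on this scale between -0.26 and -0.65 for the other 8. Over all genes 1090 were called lower and 1139 higher, which became 1568 lower and 856 higher after rescaling without mitochondrial transcripts and 1521 lower and 925 higher with upper quartile scaling. The 9 genes were called lower in both.

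**Figure D1:**
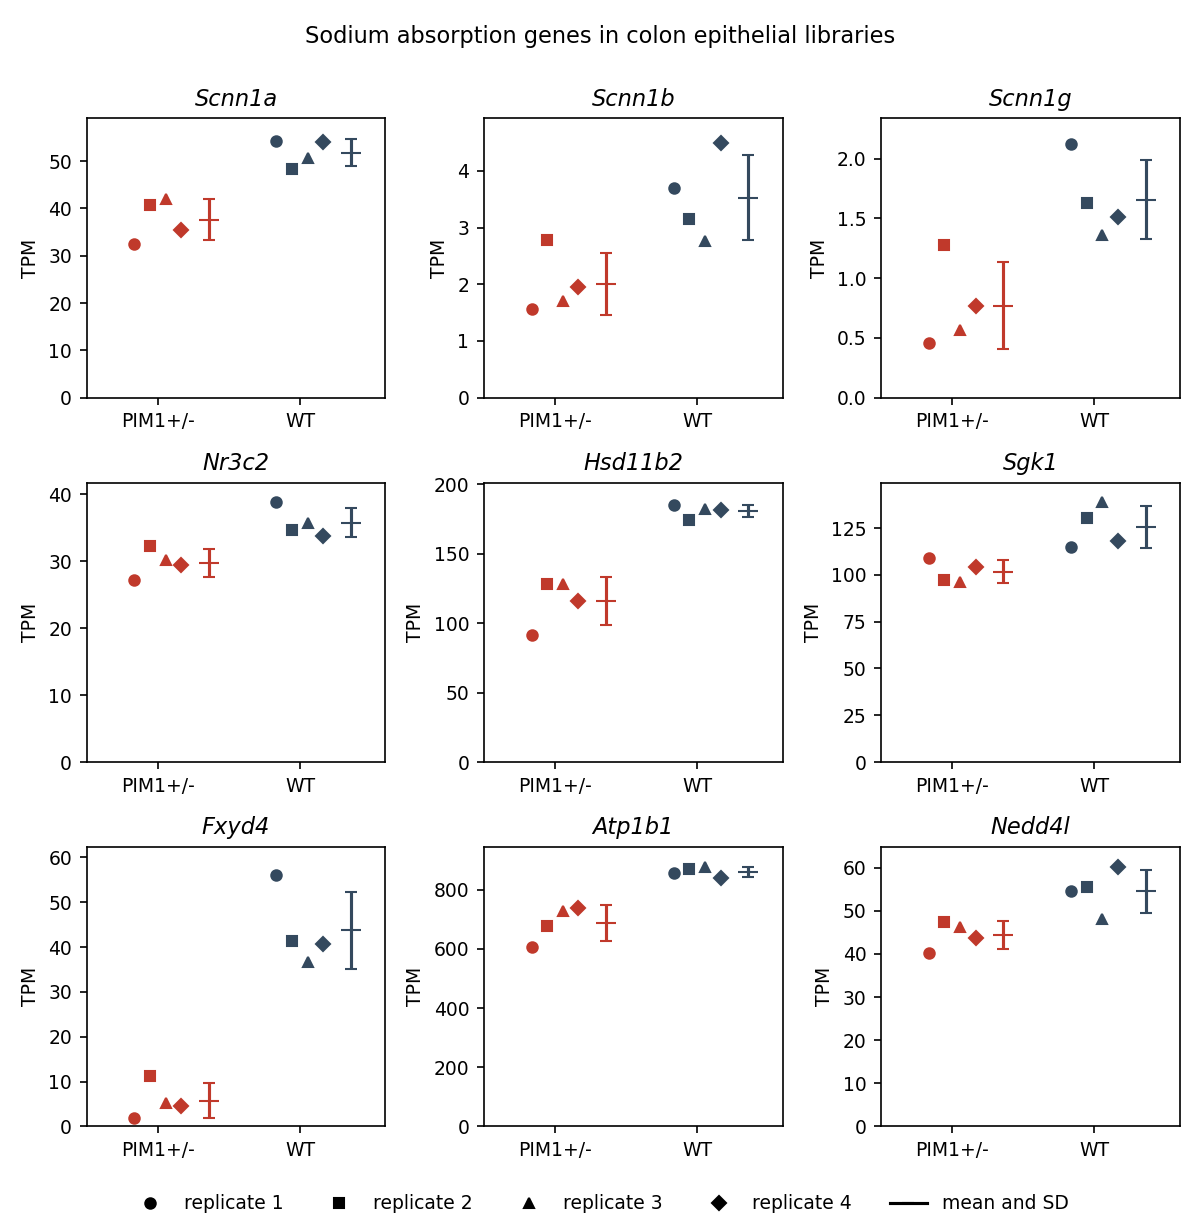
TPM of each of the 9 sodium absorption genes (vertical axes, from 0, one scale per gene) in 4 PIM1+/- libraries (left) and 4 WT libraries (right). Symbols mark the replicate and bars give the mean and SD. PIM1+/- libraries lie below all WT libraries for every gene but Scnn1b.

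The transcripts differed widely in abundance, on the length-scaled TPM scale. In PIM1+/- libraries the order of mean levels was Atp1b1, Hsd11b2, Sgk1, Nedd4l, Scnn1a, Nr3c2, Fxyd4, Scnn1b and Scnn1g. In WT libraries Fxyd4 stood one place higher, above Nr3c2, and the rest of the order was the same. The library ranges overlapped in PIM1+/- between Hsd11b2 and Sgk1, between Nedd4l and Scnn1a, and between Fxyd4 and Scnn1b. In WT they overlapped between Nedd4l and Scnn1a, between Nedd4l and Fxyd4, between Scnn1a and Fxyd4, and between Fxyd4 and Nr3c2. The 9 genes summed to 911 to 1079 TPM in PIM1+/- libraries and to 1334 to 1373 TPM in WT libraries, most of it from Atp1b1.

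The channel subunits were examined first. Scnn1a (ENSMUSG00000030340, chromosome 6, 125320659 to 125344943, GRCm38) encodes the alpha subunit, which is needed for channel assembly. Scnn1a measured 32.49, 40.61, 41.92 and 35.49 TPM in PIM1+/- replicates 1 to 4, against 54.18, 48.26, 50.57 and 54.03 TPM in WT replicates 1 to 4. The groups did not overlap, and all PIM1+/- libraries were low. Scnn1a averaged 37.6 ± 4.41 TPM in PIM1+/- and 51.8 ± 2.87 TPM in WT (SD, n = 4 each), a log2 fold change of -0.46 ± 0.09 (limma adjusted p = 0.00814).

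The beta and gamma subunit genes lie beside each other on chromosome 7, Scnn1b (ENSMUSG00000030873) at 121865038 to 121918514 and Scnn1g (ENSMUSG00000000216) at 121734479 to 121768475 (GRCm38). Both were far less abundant than Scnn1a. Scnn1b measured 1.57, 2.78, 1.70 and 1.95 TPM in PIM1+/- replicates 1 to 4, against 3.69, 3.15, 2.77 and 4.50 TPM in WT replicates 1 to 4. PIM1+/- replicate 2 lay just above WT replicate 3, so the groups overlapped by that pair. Scnn1b had a log2 fold change of -0.60 ± 0.16 (limma adjusted p = 0.0356). Scnn1g measured 0.46, 1.28, 0.57 and 0.77 TPM in PIM1+/- replicates 1 to 4, against 2.12, 1.63, 1.36 and 1.51 TPM in WT replicates 1 to 4. Its groups did not overlap, and PIM1+/- replicate 2 came close to the WT libraries. Scnn1g had a log2 fold change of -0.60 ± 0.17 (limma adjusted p = 0.0411). With a pseudocount of 0.1 in place of 1, the log2 fold change was -1.08 for Scnn1g and -0.80 for Scnn1b, and the ratio of mean TPM was 0.465 for Scnn1g and 0.567 for Scnn1b. The call was lost for Scnn1b in 6 of 8 and for Scnn1g in 7 of 8 fits without a single library, with log2 fold changes staying between -0.71 and -0.50 for Scnn1b and between -0.73 and -0.51 for Scnn1g.

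Ratios inside a library do not depend on how the TPM were scaled, and 3 ratios of subunits were compared. Scnn1b amounted to 5.31 ± 1.18% of Scnn1a in PIM1+/- libraries and to 6.79 ± 1.18% in WT libraries (SD, n = 4 each). Scnn1g amounted to 2.02 ± 0.838% of Scnn1a in PIM1+/- libraries and to 3.19 ± 0.567% in WT libraries. Its PIM1+/- libraries gave 1.42, 3.15, 1.36 and 2.17%, against 3.91, 3.38, 2.69 and 2.79% in WT libraries, and the groups overlapped through PIM1+/- replicate 2. Scnn1g amounted to 37.1 ± 7.29% of Scnn1b in PIM1+/- libraries and to 48.0 ± 10.2% in WT libraries. The log2 ratios differed by -0.37 for Scnn1b to Scnn1a (exact permutation p = 0.2, two-sided), -0.73 for Scnn1g to Scnn1a (exact permutation p = 0.0857) and -0.36 for Scnn1g to Scnn1b (exact permutation p = 0.143). Each adjusted p over the 3 ratios was 0.2, where 4 against 4 libraries allow no p below 0.0286. An unequal fall of the 3 subunits was thus not shown, nor was an equal one.

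**Figure D2:**
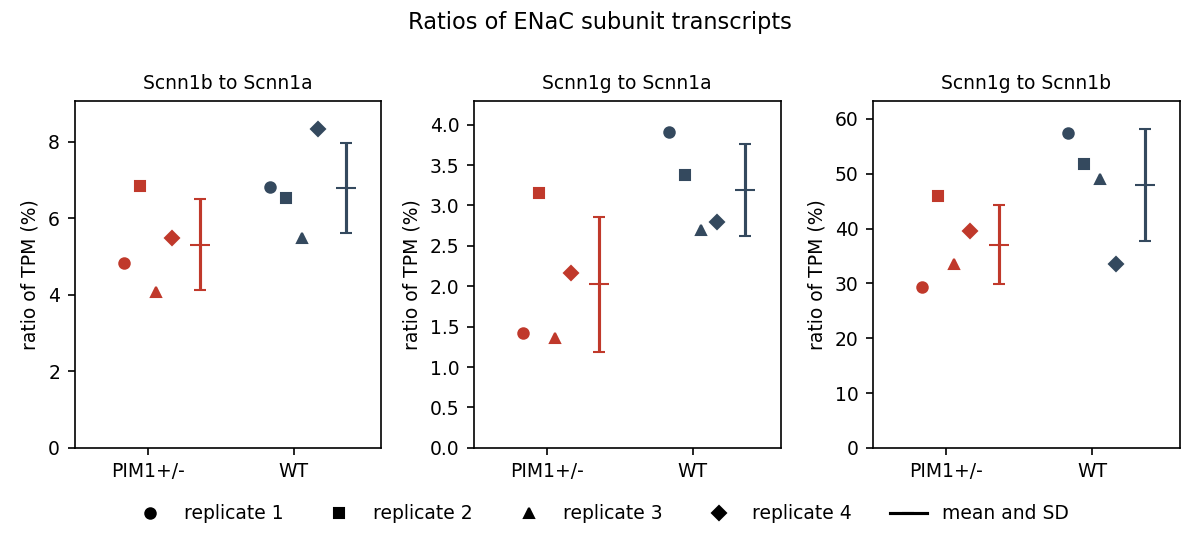
Ratio of TPM between pairs of ENaC subunit genes in percent (vertical axes, from 0) in 4 PIM1+/- libraries (left) and 4 WT libraries (right), with the mean and SD beside the points. The mean ratio is lower in PIM1+/- for all 3 pairs, and the groups overlap in each.

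The sodium pump is made of an alpha and a beta subunit, joined in some tissues by a small FXYD protein. Fxyd4 (ENSMUSG00000004988, chromosome 6, 117933559 to 117937692, GRCm38) encodes such a partner, also called CHIF, which in rat is induced by corticosteroids in the distal colon and raises the affinity of the pump for sodium. Fxyd4 measured 1.88, 11.18, 5.32 and 4.47 TPM in PIM1+/- replicates 1 to 4, against 56.1, 41.26, 36.77 and 40.68 TPM in WT replicates 1 to 4. The groups were far apart, and within PIM1+/- the replicates themselves spread widely, with replicate 1 lowest and replicate 2 highest. The mean was 5.71 ± 3.93 TPM in PIM1+/- libraries and 43.7 ± 8.50 TPM in WT libraries (SD, n = 4 each), a ratio of 0.131. The log2 fold change of -2.90 ± 0.36 (95% interval -3.72 to -2.09, limma adjusted p = 0.00118) was the second lowest of the 12760 genes tested. The window of 300 bases around the annotated start of Fxyd4, the gene with the greatest fall, is shown from RefSeq on GRCm38.p6 (chr6:117937286-117937585, minus strand, 250 bases before to 50 after the start). It is all in lower case because it held no match to the steroid receptor letters described below for Sgk1.
Fxyd4: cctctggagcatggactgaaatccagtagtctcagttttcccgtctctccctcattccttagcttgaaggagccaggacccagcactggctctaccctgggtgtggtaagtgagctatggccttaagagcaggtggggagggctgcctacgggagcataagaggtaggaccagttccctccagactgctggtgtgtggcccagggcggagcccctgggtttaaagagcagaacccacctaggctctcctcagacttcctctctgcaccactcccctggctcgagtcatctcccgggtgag

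Atp1b1 (ENSMUSG00000026576, chromosome 1, 164437109 to 164458355, GRCm38) encodes the beta subunit of the pump and was the most abundant of the 9 transcripts. Atp1b1 measured 606.69, 678.63, 728.48 and 739.15 TPM in PIM1+/- replicates 1 to 4, against 855.67, 870.58, 877.37 and 839.42 TPM in WT replicates 1 to 4. WT libraries lay close together and all PIM1+/- libraries were below them. The log2 fold change was -0.33 ± 0.06 (limma adjusted p = 0.00972). Nme7, annotated on the other strand, shares 575 exon bases with Atp1b1 and averaged 9.38 TPM, so reads of the pair could be exchanged if the counting did not use strand, which the sources used here do not state.

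Among the 12 other pump genes listed, 4 were high enough to test, 1 was called higher and none lower. Fxyd5, another FXYD partner, measured 1.79, 3.01, 2.93 and 6.11 TPM in PIM1+/- replicates 1 to 4, against 0.94, 0.55, 1.45 and 1.91 TPM in WT replicates 1 to 4 (0.97 ± 0.29, limma adjusted p = 0.0496). Fxyd5 met the filter through the 4 PIM1+/- libraries, since 2 of 4 WT libraries reached 1 TPM, so its call is not independent of the filter. Its groups overlapped, and the call was lost with a pseudocount of 0.1, with upper quartile scaling (adjusted p = 0.0558) and after rescaling without mitochondrial transcripts (adjusted p = 0.0567). Under each of these scalings 0 genes of the list were called higher and 1 lower. Fxyd3 averaged 77.8 ± 7.26 TPM in PIM1+/- and 63.8 ± 6.61 TPM in WT libraries (0.28 ± 0.09, limma adjusted p = 0.0558). Atp1b3, an alternative beta subunit, stood at 28.4 ± 2.84 TPM in PIM1+/- and 28.4 ± 2.44 TPM in WT libraries (-0.01 ± 0.09, 95% interval -0.20 to 0.19, limma adjusted p = 0.977).

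The mineralocorticoid receptor and the enzyme that guards it make up the hormone-sensing step. Hsd11b2 (ENSMUSG00000031891, chromosome 8, 105518755 to 105523988, GRCm38) encodes the dehydrogenase that inactivates glucocorticoids, so that aldosterone can occupy the receptor. Hsd11b2 measured 91.57, 128.38, 127.83 and 116.18 TPM in PIM1+/- replicates 1 to 4, against 184.73, 174.29, 181.97 and 181.52 TPM in WT replicates 1 to 4. WT libraries were nearly equal and PIM1+/- libraries were all well below them. Hsd11b2 averaged 116 ± 17.2 TPM in PIM1+/- and 180.6 ± 4.46 TPM in WT libraries (SD, n = 4 each), a log2 fold change of -0.65 ± 0.10 (limma adjusted p = 0.00325).

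Nr3c2 (ENSMUSG00000031618, chromosome 8, 76899442 to 77245012, GRCm38) encodes the mineralocorticoid receptor. Nr3c2 measured 27.14, 32.31, 30.17 and 29.38 TPM in PIM1+/- replicates 1 to 4, against 38.83, 34.72, 35.72 and 33.79 TPM in WT replicates 1 to 4. The groups did not overlap, with a small gap between them. The log2 fold change was -0.26 ± 0.07 (limma adjusted p = 0.0347), and it was called in 1 of 8 fits without a single library. The related glucocorticoid receptor gene Nr3c1 was higher, at 20.5 ± 0.828 TPM in PIM1+/- and 17.1 ± 0.997 TPM in WT libraries (0.25 ± 0.07, limma adjusted p = 0.03). Its groups did not overlap, but the call was lost with upper quartile scaling (adjusted p = 0.0736) and after rescaling without mitochondrial transcripts (adjusted p = 0.0808).

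SGK1 is a kinase induced by aldosterone and glucocorticoids, and NEDD4L is a ubiquitin ligase that marks ENaC for removal from the membrane. SGK1 phosphorylates NEDD4L, which weakens its hold on the channel. Sgk1 (ENSMUSG00000019970, chromosome 10, 21882184 to 21999903, GRCm38) measured 109.05, 97.02, 96.42 and 104.41 TPM in PIM1+/- replicates 1 to 4, against 114.66, 130.35, 138.77 and 118.09 TPM in WT replicates 1 to 4. The groups did not overlap, with PIM1+/- replicate 1 and WT replicate 1 nearest to each other. Sgk1 had a log2 fold change of -0.30 ± 0.07 (limma adjusted p = 0.0227).

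Steroid receptors of this family bind a palindrome of the arm TGTTCT and its reverse complement, with 3 bases of any kind between them. RefSeq start-site windows of 300 bases were searched on both strands for this palindrome and for a single arm. Of the 9 genes, windows were examined for 6, which were Scnn1b, Scnn1g, Nr3c2, Sgk1, Fxyd4 and Atp1b1. No window was found for Scnn1a and Hsd11b2. Nedd4l was left out of the search by gene, so whether it holds a match is not reported. The palindrome was in 3 of 32851 windows of all genes (0.00913%), and 1 of these was 1 of the 6 windows of Sgk1. The single arm was in 19% of all windows, and among the 6 genes in 3 windows, all of Sgk1. The Sgk1 window with the palindrome is shown because it holds the only palindrome match among the 6 genes, with matches in capitals (chr10:21993640-21993939, plus strand, GRCm38.p6). The palindrome lies at 21993701 to 21993715, beginning 189 bases before that start, and holds both arms, while 1 further arm lies upstream of it.
Sgk1: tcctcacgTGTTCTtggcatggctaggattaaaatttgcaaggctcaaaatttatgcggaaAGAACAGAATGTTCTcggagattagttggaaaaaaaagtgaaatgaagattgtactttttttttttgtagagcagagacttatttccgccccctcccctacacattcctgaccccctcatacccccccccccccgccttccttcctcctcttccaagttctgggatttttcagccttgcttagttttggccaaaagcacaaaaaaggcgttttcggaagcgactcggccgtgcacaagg
The TPM are per gene, so they do not show which Sgk1 start was in use, and a match of letters is not evidence of binding.

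Nedd4l (ENSMUSG00000024589, chromosome 18, 64887705 to 65217828, GRCm38) measured 40.13, 47.49, 46.16 and 43.6 TPM in PIM1+/- replicates 1 to 4, against 54.58, 55.51, 48.02 and 60.12 TPM in WT replicates 1 to 4. Its groups were separated narrowly, by PIM1+/- replicate 2 and WT replicate 3. Nedd4l had a log2 fold change of -0.29 ± 0.08 (limma adjusted p = 0.0365). Sgk1 was called in 4 of 8 and Nedd4l in 2 of 8 fits without a single library.

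**Figure D3:**
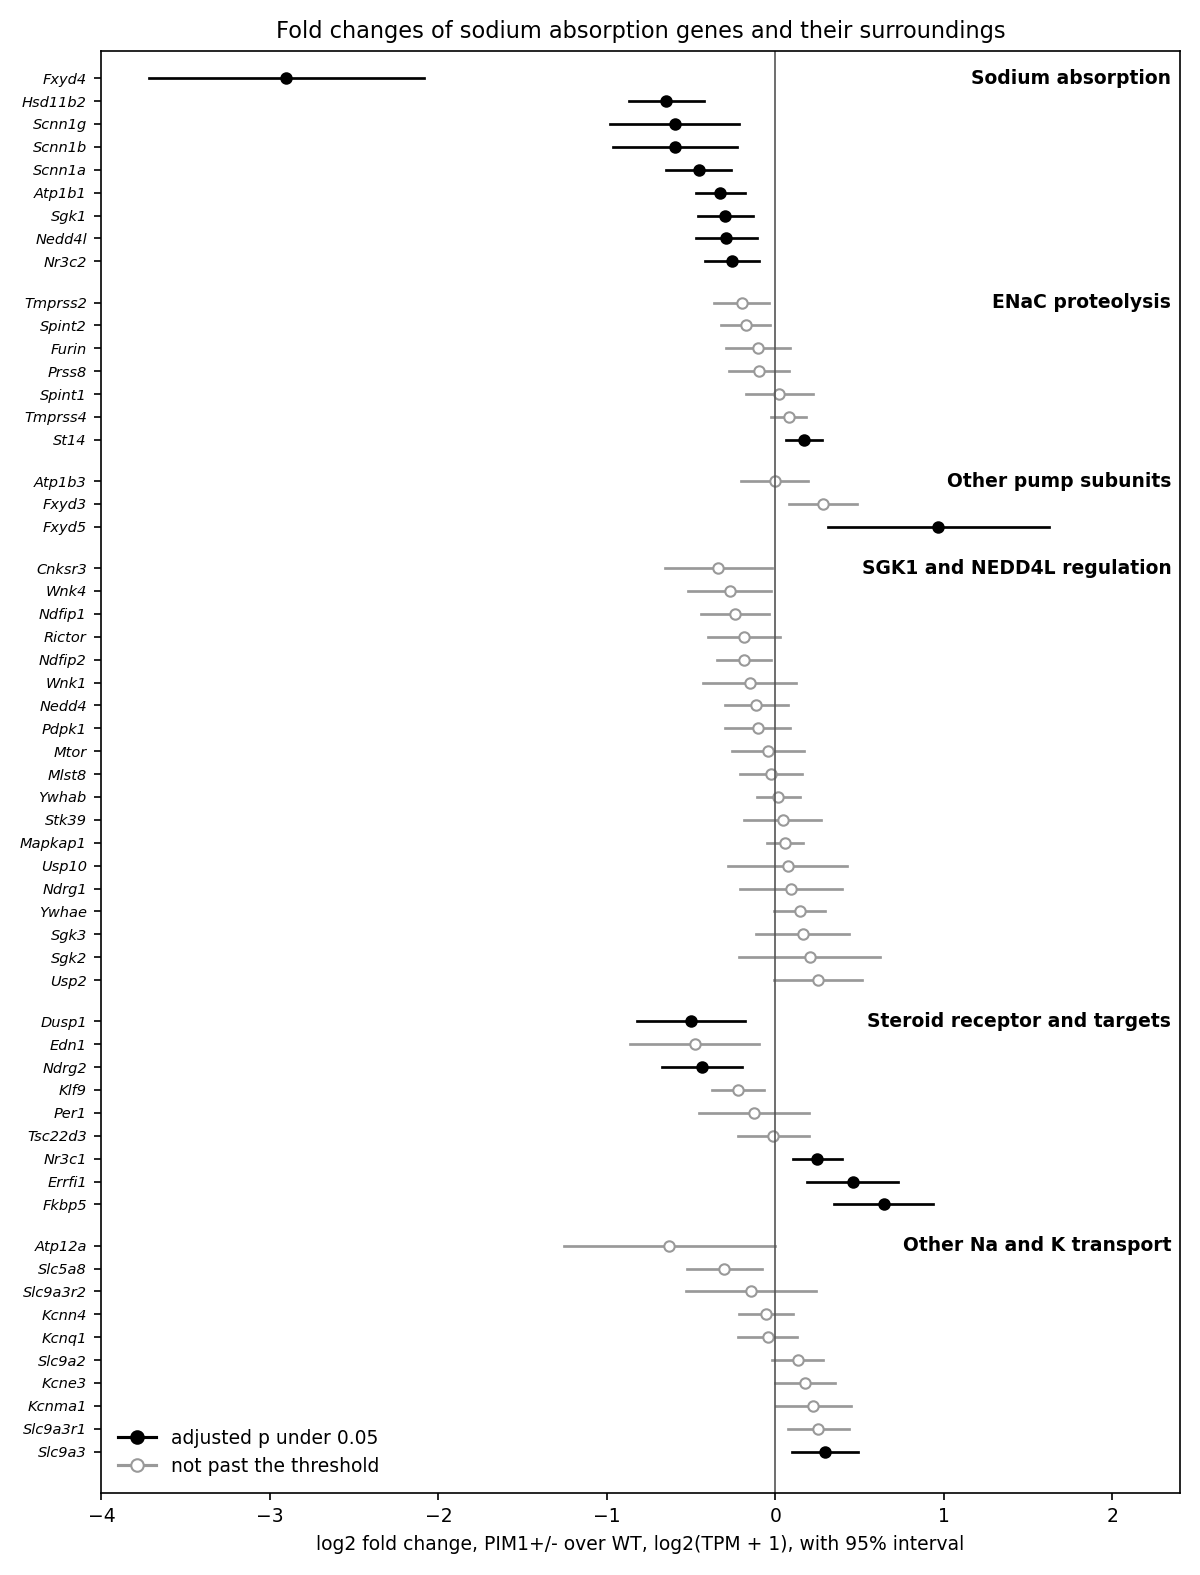
Log2 fold change, PIM1+/- over WT on the log2(TPM + 1) scale (horizontal axis), with 95% intervals for the 9 sodium absorption genes and for genes of 5 surrounding lists (rows). Filled points passed an adjusted p of 0.05; all 9 sodium absorption genes lie to the left of 0, while the other lists hold calls on both sides or few calls.

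The surrounding lists are read against the 8.93% of all genes called higher and the 8.54% called lower. Among 9 tested genes of the steroid receptor and target list (11 listed), 3 were higher and 2 lower, with a median log2 fold change of -0.13. This balance turned to 2 higher and 3 lower with upper quartile scaling, and to 2 higher and 4 lower of 10 tested after rescaling without mitochondrial transcripts. Fkbp5, a receptor co-chaperone induced by glucocorticoids, measured 79.69, 88.52, 90.49 and 82.9 TPM in PIM1+/- replicates 1 to 4, against 53.69, 67.76, 40.97 and 58.2 TPM in WT replicates 1 to 4. Its groups did not overlap, and Fkbp5 was higher in PIM1+/- where Sgk1 was lower (0.64 ± 0.13, limma adjusted p = 0.0111). Errfi1, a feedback inhibitor of the EGF receptor, averaged 56.2 ± 10.9 TPM in PIM1+/- and 40.2 ± 2.48 TPM in WT libraries (0.46 ± 0.12, limma adjusted p = 0.0292). Ndrg2, reported as aldosterone-induced in rat, averaged 85.1 ± 13.5 TPM in PIM1+/- and 114.4 ± 5.71 TPM in WT libraries (-0.43 ± 0.11, limma adjusted p = 0.0224). The phosphatase gene Dusp1, named after its values were seen, was the second called lower, with 85.82 to 127.96 TPM in PIM1+/- and 127.42 to 184.92 TPM in WT libraries. Zbtb16, likewise named after its values were seen, fell under the filter with 0.27, 0.34, 0.42 and 0.42 TPM in PIM1+/- replicates 1 to 4, against 0.99, 1.02, 1.12 and 1.09 TPM in WT replicates 1 to 4. It encodes a zinc finger repressor that corticosteroids induce, and its groups did not overlap. The 4 tested genes of this list that limma did not call were also named after their values were seen. They were Tsc22d3 (-0.01, adjusted p = 0.95), Per1 (-0.13, adjusted p = 0.595), Klf9 (-0.22, adjusted p = 0.0517) and Edn1 (-0.48, adjusted p = 0.0851).

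Of 7 tested genes for proteases that cleave ENaC and their inhibitors (8 listed), St14 was called higher and none lower, with a median of -0.10. St14, the matriptase gene, averaged 138.4 ± 5.45 TPM in PIM1+/- and 123 ± 3.90 TPM in WT libraries (0.17 ± 0.05, limma adjusted p = 0.0414). St14 was not called with upper quartile scaling, when 1 gene of the list was called lower and none higher, or after rescaling without mitochondrial transcripts, when 2 were called lower and none higher. Tmprss2 (-0.20 ± 0.07, limma adjusted p = 0.0896), Spint2, a protease inhibitor gene (-0.18 ± 0.07, limma adjusted p = 0.0959), and Tmprss4 (0.08 ± 0.05, limma adjusted p = 0.278) did not pass. None of 19 tested genes of the SGK1 and NEDD4L list, not all of which act on them, was called by limma, and their median was -0.02. At an unadjusted p under 0.05, 4 of the 19 were lower and 0 higher. Such a p was common, held by 4132 of all 12760 genes tested, in either direction. The smallest p-values there were those of Ndfip1 (-0.24 ± 0.09, adjusted p = 0.101) and Ndfip2 (-0.19 ± 0.07, adjusted p = 0.106), adaptors of NEDD4-type ligases. Wnk4, a kinase gene of renal salt transport, and Cnksr3, a scaffold gene, followed at -0.27 ± 0.11 (adjusted p = 0.122) and -0.34 ± 0.14 (adjusted p = 0.13).

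Of 10 tested genes for other routes of sodium and potassium (15 listed) 1 was called higher and none lower, with a median of 0.04, a share close to that over all genes. Slc9a3, the apical sodium/proton exchanger NHE3 that carries electroneutral sodium absorption, measured 153.54, 149.44, 145.57 and 123.89 TPM in PIM1+/- replicates 1 to 4, against 110.56, 134.18, 112.01 and 109.62 TPM in WT replicates 1 to 4. PIM1+/- replicate 4 lay below WT replicate 2, and the other libraries were separated (0.29 ± 0.09, limma adjusted p = 0.0475). The scaffold gene Slc9a3r1 (NHERF1) averaged 220 ± 26.5 TPM in PIM1+/- and 183.3 ± 7.10 TPM in WT libraries (0.25 ± 0.08, limma adjusted p = 0.0582). Slc5a8, a sodium-coupled monocarboxylate transporter gene, averaged 93.0 ± 6.83 TPM in PIM1+/- and 115.6 ± 16.5 TPM in WT libraries (-0.30 ± 0.10, limma adjusted p = 0.0628). The list turned to 0 higher and 1 lower under other scalings. Slc9a3 was then not called (adjusted p = 0.0913 with upper quartile scaling and 0.0826 after rescaling without mitochondrial transcripts), and Slc5a8 was called lower (adjusted p = 0.0272 and 0.0324 in the same order). The BK potassium channel gene Kcnma1 averaged 3.95 ± 0.443 TPM in PIM1+/- and 3.22 ± 0.099 TPM in WT libraries (0.23 ± 0.10, limma adjusted p = 0.147). St14 was called in 1, Slc9a3 in 2 and Fkbp5 in 8 of the 8 fits without a single library.

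PIM1+/- replicate 1 had the lowest value of its group for 8 of the 9 sodium absorption genes, all but Sgk1, for which it was the highest. PIM1+/- replicate 2 had the highest value for 6 of the 9. Without PIM1+/- replicate 1, 5 of the 9 genes were called lower, and the log2 fold change of Fxyd4 was -2.56. Between 4 and 8 of the 9 were called lower in the fits without a single library, and 4 of them (Scnn1a, Hsd11b2, Fxyd4 and Atp1b1) in all 8 fits. The number was 4 without PIM1+/- replicate 3 or WT replicate 2, and 5 without PIM1+/- replicate 1 or 4 or WT replicate 1 or 4. With no filter on low values 4 of the 9 were called lower by limma, and without its mean-variance trend 7.

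**Figure D4:**
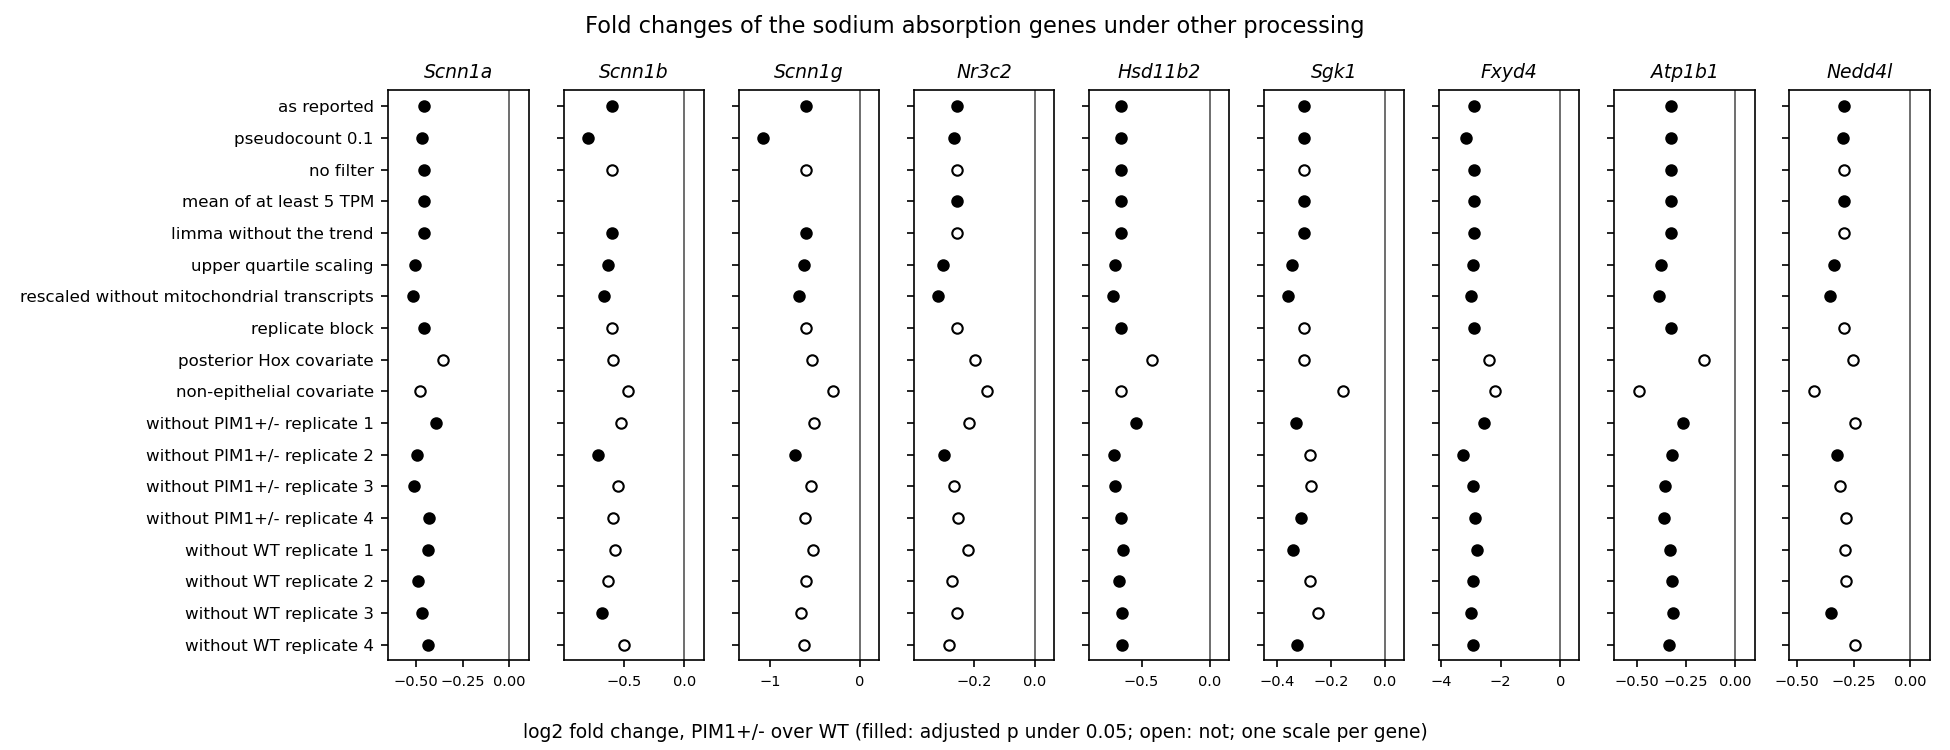
Log2 fold change, PIM1+/- over WT (horizontal axes, one scale per gene), of the 9 sodium absorption genes as reported and under each other fit (rows). Filled points passed an adjusted p of 0.05 and open points did not. All points lie below 0, and Scnn1a, Hsd11b2, Fxyd4 and Atp1b1 are filled in every row but the pair with a marker score as covariate.

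Marker lists of position along the gut and of other cells moved with genotype as well. ENaC transcripts and posterior Hox genes are both known to be higher towards the distal end of the colon. Posterior Hox genes summed to 54.1, 103.6, 107.1 and 121.7 TPM in PIM1+/- replicates 1 to 4, against 199.2, 177.9, 231.9 and 188.8 TPM in WT replicates 1 to 4. Of 12 listed, 6 were tested, 4 were called lower and none higher, and 4 were listed at 0 in every library. Hoxb13 averaged 50.3 ± 15.9 TPM in PIM1+/- and 118 ± 14.7 TPM in WT libraries (-1.27 ± 0.24, limma adjusted p = 0.00746). PIM1+/- replicate 1, low for most sodium absorption genes, was also the lowest in this sum. PIM1+/- replicate 2, highest of its group for 6 of the 9 genes, was not highest there (103.6 TPM, against 121.7 TPM in replicate 4). Whether the libraries differ in position along the colon was not tested. With a posterior Hox score as covariate 0 of the 9 genes were called by limma, with Fxyd4 at -2.39 (adjusted p = 0.0602), Hsd11b2 at -0.42 (adjusted p = 0.113) and Scnn1a at -0.36 (adjusted p = 0.215). Atp1b1 stood at -0.16 in that fit, against -0.33 without the covariate, while Sgk1 (-0.30) and Scnn1b (-0.59) kept their size. The Hox score correlated with genotype at -0.73 over the 8 libraries. At an unadjusted p under 0.05, 6 of the 9 were lower in the fit with the Hox score. There limma called 243 of all genes (1998 had an unadjusted p under 0.05), whereas without the covariate 2229 were called (4132 with such a p).

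Markers of lymphocytes, myeloid cells, fibroblasts, smooth muscle and endothelium summed to 50.4 to 106 TPM in PIM1+/- libraries and to 13.5 to 26.6 TPM in WT libraries. The difference lay in the 16 leukocyte markers, which summed to 49.3 to 104.0 TPM in PIM1+/- libraries and to 11.3 to 24.1 TPM in WT libraries. The 11 markers of fibroblasts, muscle and endothelium summed to 1.07 to 3.6 TPM in PIM1+/- libraries and to 2.19 to 3.09 TPM in WT libraries, and none reached the filter. Of 27 listed, 9 were tested, all of leukocytes, and 8 of these were called higher and none lower. That count is not independent of the filter, since 5 of the 8 reached 1 TPM in all 4 PIM1+/- libraries and in at most 2 WT libraries. Epithelial markers summed to 25770 to 29670 TPM in PIM1+/- libraries and to 18560 to 23020 TPM in WT libraries, with 6 of 10 called higher and none lower. Most of that difference was Car1, a carbonic anhydrase gene, at 10658 to 13988 TPM in PIM1+/- and 4639 to 8365 TPM in WT libraries. The other 9 summed to 15109 to 16221 TPM in PIM1+/- and to 13644 to 14654 TPM in WT libraries, and Epcam, Cdh1, Lgals4 and Slc26a3 were not called. A score of the non-epithelial markers, built from the 9 tested ones, correlated with genotype at 0.93 over the 8 libraries. Like the count of calls, that correlation is not independent of the filter. With that score as covariate 0 of the 9 genes, and 0 of all genes, were called by limma, with 1309 genes, 1 of the 9 among them, at an unadjusted p under 0.05. The log2 fold changes of the 9 genes then ran from -2.18 for Fxyd4 to -0.15 for Sgk1. Their median was -0.464, against -0.455 without the covariate. Atp1b1 (-0.49, against -0.33) and Nedd4l (-0.43, against -0.29) were larger in size with the covariate. Scnn1a and Hsd11b2 kept their size, and Fxyd4, Scnn1b, Scnn1g, Nr3c2 and Sgk1 were smaller. In bulk RNA fewer cells of a type and less RNA per cell cannot be told apart.

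**Figure D5:**
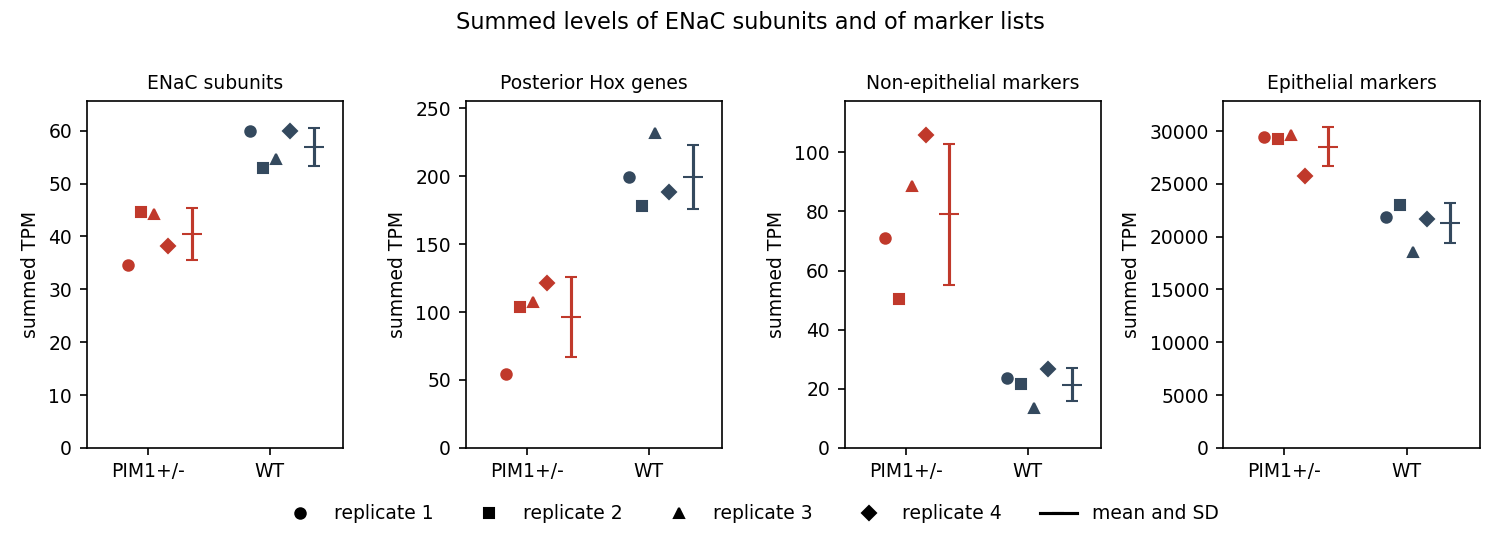
Summed TPM (vertical axes, from 0) of the 3 ENaC subunit genes, 12 posterior Hox genes, 27 non-epithelial markers and 10 epithelial markers in 4 PIM1+/- libraries (left) and 4 WT libraries (right), with the mean and SD. ENaC subunits (34.52 to 44.67 TPM in PIM1+/- and 53.04 to 60.04 TPM in WT) and posterior Hox genes are lower in every PIM1+/- library, and both marker sums are higher.

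Genes with the most similar course over the 8 libraries were sought among 11030 tested genes. Likeness was the root mean square difference of log2(TPM + 1) after centring each gene on its mean. Nearest to Scnn1a were Selenbp1 (0.0667), Slc35g1 (0.0698) and Klhdc7a (0.0728), in log2 units. Nearest to Scnn1b were Slc16a13 (0.112), Cdc42ep3 (0.119) and Il17re (0.126). Nearest to Scnn1g were Nrn1 (0.0981), Slc25a34 (0.131) and Tmem106c (0.132). Several of these depend on the pseudocount: with 0.1 the difference was 0.208 for Klhdc7a, 0.246 for Nrn1, 0.305 for Slc25a34 and 0.37 for Tmem106c, against 0.0653 for Selenbp1. Nearest to Fxyd4 were Tgm3 (0.549), Cyp2f2 (0.599) and Cyp2c69 (0.631). These differences are larger, but the measure is not scaled to the fold change, which was -2.90 for Fxyd4, so they do not show a poorer match. Tgm3, a transglutaminase gene, measured 28.83, 88.16, 129.26 and 98.17 TPM in PIM1+/- replicates 1 to 4, against 403.09, 313.54, 399.32 and 422.7 TPM in WT replicates 1 to 4, and like Fxyd4 was lowest in PIM1+/- replicate 1.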

How the data were processed

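Gene-level TPM were deposited in a single table. Per the series' design text the authors quantified gene abundances with RSEM and expressed them as TPM, and HISAT2, StringTie, edgeR and the build GRCm38.p6 stand in the submitters' processing notes. What each tool did, the annotation, strand handling and filtering are not stated there. RNA was extracted with TRIzol, per the labels' protocols. All 8 columns were used (0 left out).

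Limma 3.58.1 (R 4.3.3) compared log2(TPM + 1) between genotypes with a mean-variance trend and two-sided tests. The 12760 genes that reached 1 TPM in 4 or more libraries entered, p-values were adjusted after Benjamini and Hochberg over all of them, and the threshold was 0.05. Subunit ratios were tested by exact permutation of libraries. Tests were checked on simulated data. Gene positions came from GENCODE M21 (GRCm38), and start-site windows from RefSeq (GRCm38.p6). The genes, lists and tests were chosen with earlier results of these data known. Named were the 9 genes, up to 4 genes with the smallest p per other list, and the 3 nearest in likeness. A gene that this rule names is not reported here. The likeness search skipped genes on X and Y, antigen receptor segments and predicted models. Alternatives were other pseudocounts, filters, scalings, variance models and covariates, and leaving out each library. Figures were drawn with matplotlib 3.10.9.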

Additional observations from a re-analysis of the deposited data

Results flagged for a closer look

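A single library stood apart from the other 3 of its genotype, by Dixon's ratio of the gap to the group's range at its 95% critical value, in 2 of 58 groups searched (29 named genes in each genotype). Chance gives about 1 in 20 such groups. Fxyd3 measured 88.61 TPM in PIM1+/- replicate 4, above the other 3 PIM1+/- libraries. Slc9a3 measured 134.18 TPM in WT replicate 2, above the other 3 WT libraries. None of the 9 sodium absorption genes had such a library.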

How the results depend on the processing

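All 9 sodium absorption genes stayed lower in PIM1+/- in every fit run, and the calls depended on the fit. Of the 9, 4 were called without a filter on low values, 4 with the replicate number as a block, 7 without the mean-variance trend, and 0 with the posterior Hox or the non-epithelial covariate. Without single libraries the numbers ran from 4 to 8. With a mean of at least 5 TPM, Scnn1b and Scnn1g were not tested. In the protease list (1 called) 0 were called without a filter, without the trend, with the replicate block and with either covariate, and 2 after rescaling without mitochondrial transcripts. Among other pump genes (1 called) 0 were called with a pseudocount of 0.1, without a filter, with a mean of at least 5 TPM, without the trend and with either covariate, and 2 with the replicate block. With upper quartile scaling and after rescaling without mitochondrial transcripts, the pump and the transport lists each turned to 0 higher and 1 lower. In the SGK1 and NEDD4L list 0 were called by limma and 4 had an unadjusted p under 0.05, as had 4132 of all 12760 genes. Of that list 1 was called with upper quartile scaling and 1 after rescaling without mitochondrial transcripts. In the steroid receptor and target list (5 called) 3 were called without a filter, 2 with the replicate block and 0 with either covariate. Among other sodium and potassium genes (1 called) 0 were called without a filter, without the trend, with the replicate block and with either covariate. Without single libraries the numbers ran from 0 to 2 for the protease list, 0 to 1 for the pump list, 0 to 2 for the SGK1 and NEDD4L list, 1 to 5 for the steroid list and 0 to 2 for the transport list. The log2 subunit ratio differences ran from -0.50 to -0.25 (Scnn1b to Scnn1a), -0.97 to -0.57 (Scnn1g to Scnn1a) and -0.53 to -0.26 (Scnn1g to Scnn1b). Directions reversed with the non-epithelial covariate for Tmprss2 (0.20), Atp1b3 (0.074), Slc5a8 (0.13) and Kcnma1 (-0.0434), with the posterior Hox covariate for Ndfip1 (0.0195), and for Atp1b3 without PIM1+/- replicate 2 or 3 or WT replicate 1 or 3 (range without single libraries -0.0649 to 0.0442). The cause of these changes was not tested. Replicate numbers gave no sign of pairing the libraries. Deviations of same-numbered libraries correlated at -0.14, 0.03, -0.03 and -0.07, and no PIM1+/- library correlated best with the WT library of its number. With so few libraries per genotype this cannot exclude a pairing. The TPM keep no depth, so no value has a counting error.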
